A study of Homo sapiens with 34 samples.

Results

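The 10 eicosanoid synthesis enzymes described here were taken by gene symbol from an expression table of 20255 genes. They are ALOX5, ALOX5AP, LTC4S and LTA4H of the leukotriene branch, PTGS1, PTGS2, PTGES, PTGDS and HPGDS of the prostaglandin branch, and TBXAS1 of the thromboxane branch. RNA was sequenced from H1, an established line of human embryonic stem cells, during haematopoietic differentiation without added haematopoietic cytokines. Undifferentiated H1 cells were represented by 1 untreated sample, and each of the 11 other populations by 3 samples, which are biological replicates in the study's methods. Embryoid bodies of day 0 carry BMP4 and hVEGF in their label and all later populations hVEGF. Cells of days 0, 2 and 4 were unsorted. On days 6, 9 and 12, cells were sorted into CD43+ and CD43- populations, CD43 being a sialoglycoprotein on the surface of most blood cells. On day 16 the gates were CD43+/CD45+ and CD43-CD45-, named day 16 CD43+ and CD43- cells below. All populations come from a single stem cell line, so the spread between replicates does not cover donors.

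Eicosanoids are short-lived lipid mediators made from arachidonic acid, which phospholipases A2 release from membranes. In the leukotriene branch, 5-lipoxygenase (ALOX5) works with its helper protein FLAP (ALOX5AP) to make leukotriene A4, which LTA4H turns into leukotriene B4, an attractant of neutrophils, and LTC4S into leukotriene C4, the parent of the cysteinyl leukotrienes. In the other branches, the cyclooxygenases PTGS1 and PTGS2 make prostaglandin H2, from which PTGES makes prostaglandin E2, PTGDS and HPGDS make prostaglandin D2, and TBXAS1 makes thromboxane A2. Mast cells, eosinophils, neutrophils and macrophages are known for leukotrienes, platelets for thromboxane, and stromal cells for prostaglandin E2.

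Promoter sequence is shown for 5 of the enzymes, picked because they differ in the direction of their difference between the sorted populations and hold a motif from the set named here. Of the 10 enzymes, 9 had a promoter in the RefSeq table used (GRCh38.p14), and ALOX5 had none. For ALOX5AP (chr13:30713235-30713484, plus strand) and TBXAS1 (chr7:139829014-139829263, plus strand) the 250 bases before the start are given 5′ to 3′, with the PU.1 motif GAGGAAGT or its reverse complement in capitals.
ALOX5AP: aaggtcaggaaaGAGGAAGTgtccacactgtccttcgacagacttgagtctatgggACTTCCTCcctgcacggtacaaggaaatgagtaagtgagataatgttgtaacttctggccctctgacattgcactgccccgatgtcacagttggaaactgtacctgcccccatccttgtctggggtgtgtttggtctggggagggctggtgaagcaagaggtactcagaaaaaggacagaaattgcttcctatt
TBXAS1: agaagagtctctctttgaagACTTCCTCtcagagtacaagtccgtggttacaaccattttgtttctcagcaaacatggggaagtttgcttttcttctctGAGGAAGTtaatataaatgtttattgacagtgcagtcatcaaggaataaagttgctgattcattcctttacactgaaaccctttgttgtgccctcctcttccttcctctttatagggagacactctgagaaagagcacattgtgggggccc
Each of these windows held the motif 2 times, in opposite orientations. Of 35116 promoters in the table, which run to 50 bases past the start, 2.59% held it at least 1 time on either strand. The TBXAS1 start in this table lies inside the gene span of the expression table, which has an outer start further upstream.

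For HPGDS (chr4:94342837-94342986), PTGS2 (chr1:186680424-186680573) and PTGES (chr9:129753043-129753192), all on the minus strand, the 150 bases before the start are given 5′ to 3′. Capitals mark the TATA box (TATAAA) in HPGDS and PTGS2, the GATA motifs (AGATAA or TGATAA, here on the opposite strand) in HPGDS, and the GC box (GGGCGG) in PTGES.
HPGDS: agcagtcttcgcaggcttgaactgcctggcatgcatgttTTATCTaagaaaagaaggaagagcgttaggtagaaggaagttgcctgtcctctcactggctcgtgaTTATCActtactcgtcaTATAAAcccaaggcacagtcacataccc
PTGS2: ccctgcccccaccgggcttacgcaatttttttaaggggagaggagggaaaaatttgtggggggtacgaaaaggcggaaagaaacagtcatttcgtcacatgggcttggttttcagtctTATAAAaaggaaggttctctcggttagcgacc
PTGES: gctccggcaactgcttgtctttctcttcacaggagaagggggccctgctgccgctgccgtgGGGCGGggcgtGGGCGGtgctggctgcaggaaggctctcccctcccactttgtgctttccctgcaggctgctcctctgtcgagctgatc
Also searched were the ETS core CCGGAA, the C/EBP motif TTNNGNAA and the cAMP response element TGACGTCA, which 17.2%, 36.8% and 1.85% of promoters held. The C/EBP motif was found in LTA4H (-76), a PTGS1 promoter (-115), PTGS2 (-133) and PTGDS (-145). Capitals mark only the motifs named for each window, so the match in PTGS2 is in small letters. The TATA box began at position -28 in HPGDS and -32 in PTGS2, counted from the start, and 11.5% of all promoters held it. PTGES held 2 GC boxes, a motif found in 15786 of the 35116 promoters. AGATAA was found in 10.3% and TGATAA in 7.53% of promoters. Besides HPGDS, AGATAA was also found in ALOX5AP (-157, and -2 on the opposite strand), unmarked above, and in a PTGS1 promoter (-178). These matches describe letters in a window and were not tested against any value below.

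A deposited value is a GC-normalized tag count rounded to a whole number. Sorted by size, the values were the same in all 34 samples, with a sum of 17856940, a median of 197, a maximum of 90700 and 1292 genes listed at 0, so a value is close to a rank and the depth of a sample is unknown. Values are compared between samples for the same enzyme and not between enzymes. Pearson's r between replicates ranged from 0.951 to 0.987 across genes, which are not independent. SPN, the gene of CD43, followed the sort, with 2338 to 9460 in the 12 CD43+ samples and 18 to 328 in the 12 CD43- samples. PTPRC, the gene of CD45, was 197 and 371 in replicates 2 and 3 of day 12 CD43- cells and 4 in replicate 1. The summed value of 13 monocyte and macrophage genes was 922, 7164 and 9699 in these replicates 1, 2 and 3. Results of day 12 are therefore also given without replicates 2 and 3 of the CD43- cells, an alternative chosen after the values were seen. POU5F1, a pluripotency gene, was 25776 in the undifferentiated sample and 32 to 166 in the 12 CD43+ samples. In CD43- cells it was 618 to 1328 on day 6, 63 to 267 on day 9 and 26 to 35 on day 16. On day 12 it was 397, 44 and 48 in replicates 1, 2 and 3 of the CD43- cells.

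CD43+ and CD43- cells of the same day were compared to see where the pathway is expressed as blood cells form. ALOX5, LTC4S, PTGS1 and TBXAS1 were called higher in CD43+ cells on all 4 days, ALOX5AP from day 9 and LTA4H and HPGDS from day 12. PTGES was called lower in CD43+ cells on all 4 days and PTGDS from day 9, while PTGS2 was called, as higher, only on day 16. A gene was called where limma, fitted across all 19788 tested genes on the log2(value + 1) scale, gave an adjusted p below 0.05 together with more than a 4-fold difference. This scale understates the change of low values. On day 6, 4 enzymes were called higher (ALOX5, LTC4S, PTGS1 and TBXAS1) and 1 lower (PTGES) in CD43+ cells, while 12.5% of all tested genes were called (4.69% higher and 7.85% lower). On day 9, ALOX5AP was also called higher and PTGDS lower, making 5 and 2 of 10, while 21.5% of genes were called (8.65% higher and 12.8% lower). On day 12, LTA4H and HPGDS were added to the higher enzymes, making 7 and 2, while 26.2% of genes were called (11.8% higher and 14.4% lower). On day 16 all 10 were called, 8 higher, now with PTGS2, and 2 lower, while 25.8% of genes were called (12.2% higher and 13.6% lower). The median log2 fold change of the 10 enzymes was 0.81, 2.24, 4.09 and 3.75 on days 6, 9, 12 and 16, beside 0.14, 0.24, 0.22 and 0.14 over all tested genes. In bulk RNA, fewer cells of a type and less RNA per cell cannot be told apart.

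**Figure D1:**
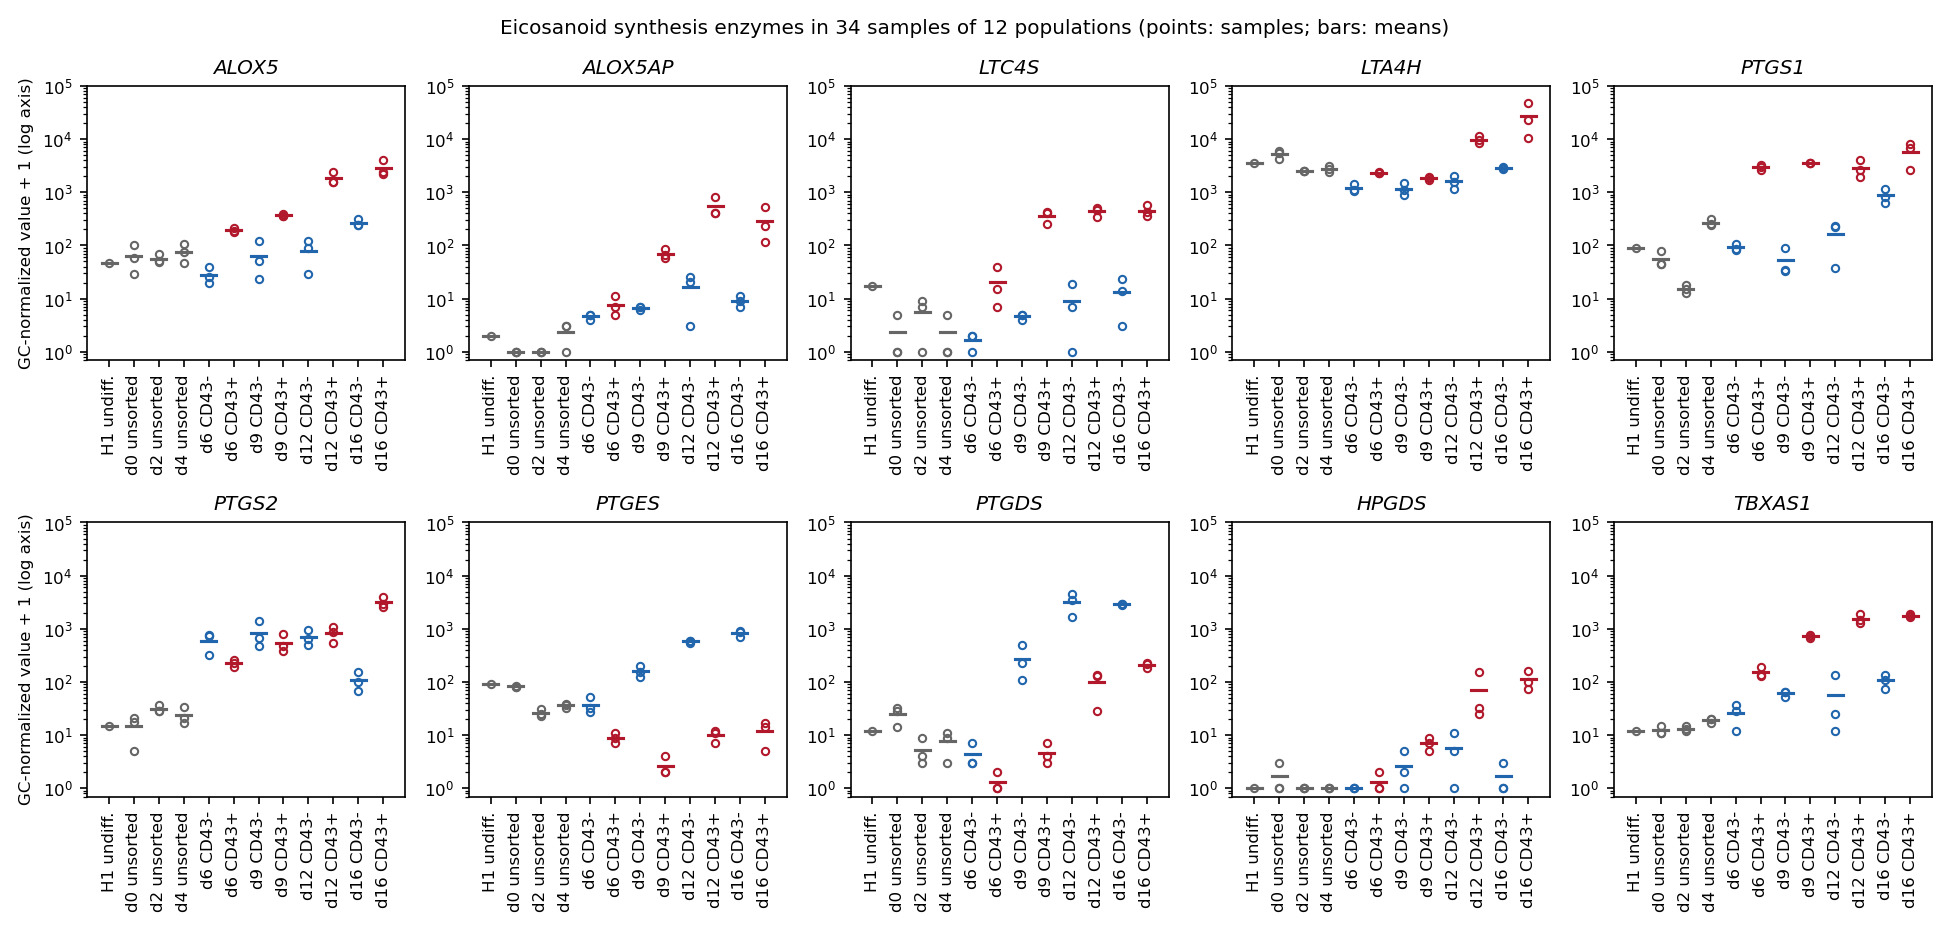
Values of the 10 enzymes in every sample (y axis, GC-normalized value + 1, log axis) for the 12 populations (x axis), with points for samples and bars for population means. The CD43+ samples (red) of days 12 and 16 lie above the CD43- samples (blue) for the 4 leukotriene enzymes, and below them for PTGES and PTGDS.

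ALOX5 (ENSG00000012779, chr10:45374176-45446119, plus strand), the enzyme that starts leukotriene synthesis, was 190, 181 and 211 in the day 6 CD43+ samples and 24, 19 and 38 in the CD43- samples. On day 9 its values were 395, 356 and 354 against 22, 119 and 50. On day 12 they were 2414, 1586 and 1590 against 28, 120 and 90. All CD43+ samples of these days were above all CD43- samples. On day 16, ALOX5 stood at 2441, 2203 and 4078 in CD43+ cells and at 245, 310 and 240 in CD43- cells, again without overlap. For ALOX5 the 4 log2 fold changes, in the order of days, were 2.85, 2.83, 4.74 and 3.41 (standard error 0.48 each, adjusted p at most 2.07e-05). Without replicate 1 of day 9 CD43- cells the day 9 value was 2.24, and without replicate 2 it was 3.43. Before sorting, ALOX5 was not called, with means of 62.0, 55.0 and 75.3 for days 0, 2 and 4. Within CD43+ cells ALOX5 rose from day 9 to day 12 (2.31, standard error 0.48, adjusted p = 0.000226). The undifferentiated sample had 46.

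ALOX5AP (ENSG00000132965, chr13:30713478-30764426, plus strand), which presents arachidonic acid to ALOX5, was listed at 0 in all samples of days 0 and 2 and at 2, 0 and 2 on day 4. On day 6 its values were 10, 6 and 4 in CD43+ cells and 4, 3 and 4 in CD43- cells. The day 6 groups touched at a value of 4, and the difference did not pass the test (0.65, standard error 0.59, adjusted p = 0.376). On day 9 the values were 58, 66 and 84 against 6, 6 and 5. On day 12 they were 821, 404 and 412 against 2, 20 and 25. On day 16 they were 228, 114 and 526 against 6, 8 and 10. From day 9 on, every CD43+ sample was above every CD43- sample, and replicate 1 of day 12 CD43+ cells was the highest of the series. The differences of days 9, 12 and 16 were 3.39, 5.45 and 4.76 on the log2 scale (standard error 0.59 each, adjusted p at most 1.39e-05). In CD43+ cells ALOX5AP rose from day 6 to day 9 (3.26, adjusted p = 9.63e-05) and from day 9 to day 12 (2.89, adjusted p = 0.000151).

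LTC4S (ENSG00000213316, chr5:179793980-179796647, plus strand), the synthase of leukotriene C4, was 38, 14 and 6 in day 6 CD43+ cells and 0, 1 and 1 in CD43- cells. The day 9 values were 258, 399 and 434 against 4, 3 and 4. The day 12 values were 344, 473 and 503 against 6, 0 and 18. LTC4S thus reached its later range in CD43+ cells by day 9, and no CD43- sample of these days reached it. The day 16 values were 571, 361 and 426 in CD43+ cells against 2, 22 and 13 in CD43- cells. Its day 6 log2 fold change was 3.33 (adjusted p = 0.00362), and those of days 9, 12 and 16 were 6.26, 6.41 and 5.49 (standard error 0.92 each, adjusted p at most 7.52e-06). The day 16 value was 4.63 without replicate 1 of the CD43- cells and 6.10 without replicate 2. The day 6 difference ranged from 2.69 without replicate 1 of the CD43+ cells to 3.93 without replicate 3. At a pseudocount of 10 the day 6 difference was 1.31 and was no longer called, and the 3 later ones were 4.74, 4.75 and 4.46 and were called. In CD43+ cells LTC4S rose from day 6 to day 9 (4.48, adjusted p = 0.000435), a step of 5.12 without replicate 1 of day 6 and 3.88 without replicate 3, and the next steps were 0.29 (adjusted p = 0.810) and 0.03 (adjusted p = 0.992).

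LTA4H (ENSG00000111144, chr12:96000828-96043520, minus strand), the hydrolase that makes leukotriene B4, was detected in every sample. On day 0 its values were 6072, 5486 and 4246, and on day 2 they were 2466, 2535 and 2501. On day 6 they were 2278, 2340 and 2453 in CD43+ cells and 1118, 1060 and 1448 in CD43- cells. The groups did not overlap, but the difference was below 4-fold (0.98, standard error 0.30, adjusted p = 0.00846). On day 9, LTA4H was 1860, 1668 and 1931 against 1124, 1498 and 876, a difference of 0.67 that missed the threshold (adjusted p = 0.0512). On day 12 it was 11512, 9501 and 8512 against 1176, 2060 and 1591, and the difference was called (2.64, adjusted p = 1.46e-08). On day 16 it was 22847, 10446 and 48061 against 3016, 2777 and 2898 (2.96, adjusted p = 1.87e-09). The day 16 CD43+ samples spread widely, from 10446 to 48061, in a table whose maximum is 90700. In CD43+ cells LTA4H rose from day 9 to day 12 (2.43, adjusted p = 1.56e-07). Its exons overlap those of AC007298.1 and AC007298.2 on the other strand (GENCODE v29). Neither gene is in the table, and the use of strand in the counting is not given in the sources used here.

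The 4 leukotriene enzymes were in this way all called higher in CD43+ cells on days 12 and 16, with a median log2 fold change of 5.10 and 4.08. On these days markers of leukotriene-producing cells were also higher in CD43+ cells. Of 16 neutrophil genes, 15 were tested, and 5, 10, 14 and 14 were called higher in CD43+ cells on days 6, 9, 12 and 16, and none lower, beside 4.69%, 8.65%, 11.8% and 12.2% of all tested genes called higher and 7.85%, 12.8%, 14.4% and 13.6% lower. Their summed value on day 12 was 215475 to 245759 in CD43+ cells and 774 to 8930 in CD43- cells. On day 6 it was 620 to 1432 in CD43+ cells, with MPO detected and ELANE, DEFA3, DEFA4, S100A8, FCGR3B, MMP8 and CAMP at 0 in all samples. Of 13 monocyte and macrophage genes, 2, 8, 13 and 13 were called higher and 1, 1, 0 and 0 lower. On day 6 their sum was 916 to 1378 in CD43+ cells and 811 to 3993 in CD43- cells. Their sum was 36276 to 116460 in day 12 CD43+ cells and was highest in replicate 1, the sample with the highest ALOX5AP. Of 13 mast cell, basophil and eosinophil genes, 6, 11, 10 and 12 were called higher and none lower, with sums of 10235 to 11833 in day 6 and 53223 to 115100 in day 16 CD43+ cells. TPSB2 and CLC were at 0 in all day 6 CD43+ samples. In unsorted day 4 cells this sum was already 6367 to 6847, with TPSB2, FCER1A and SIGLEC8 at 0 in all samples. The part of these cell types in the leukotriene results was not tested.

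**Figure D2:**
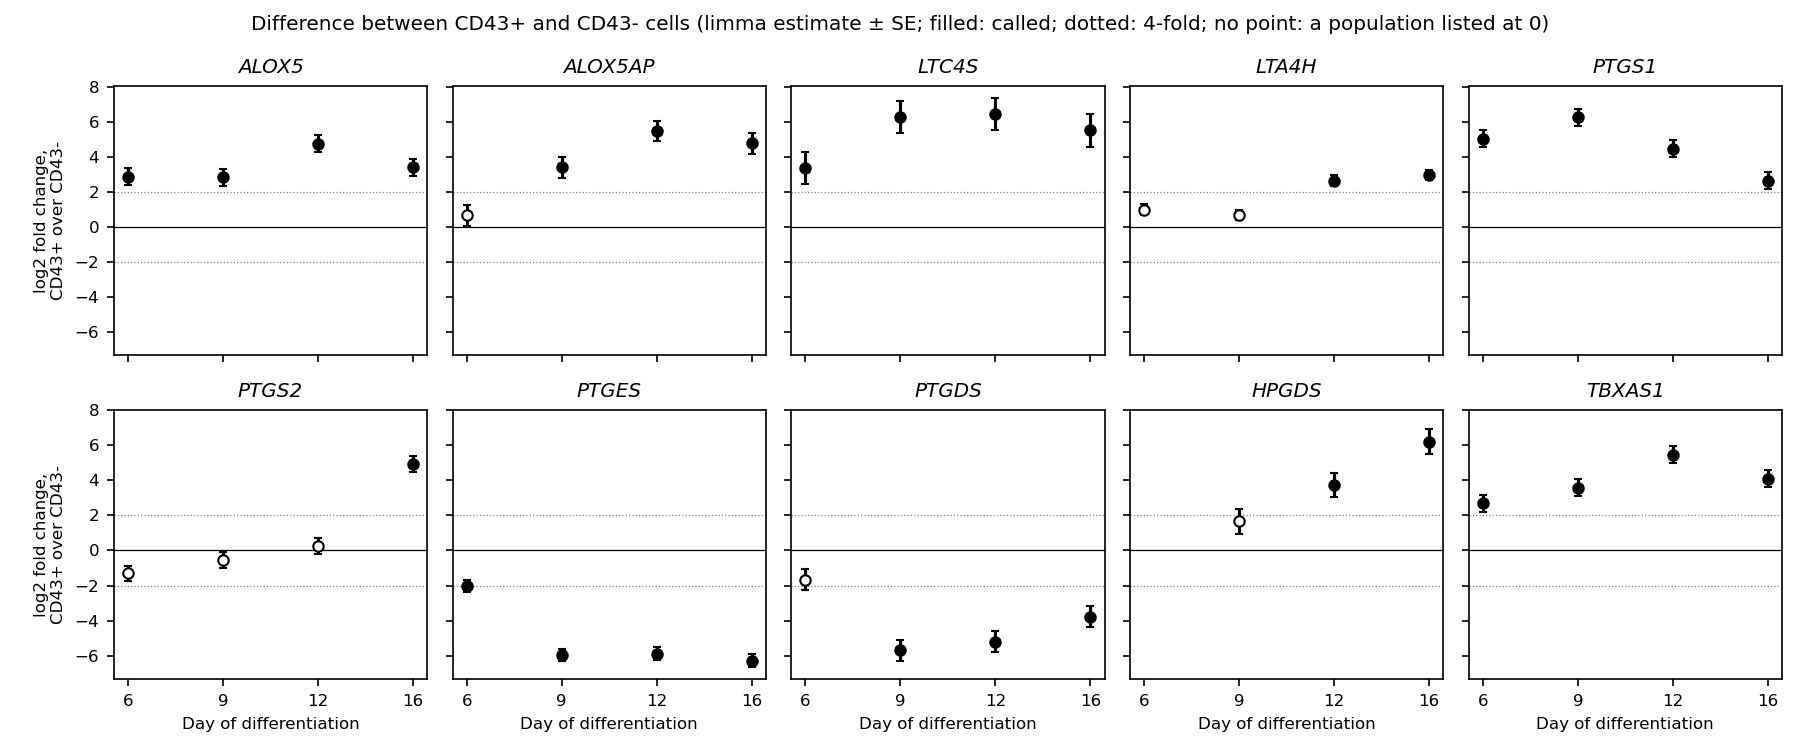
log2 fold change of CD43+ over CD43- cells (y axis, limma estimate ± standard error, 3 samples in each population) on days 6, 9, 12 and 16 (x axis) for each enzyme. Filled points are called and dotted lines mark 4-fold. ALOX5, LTC4S, PTGS1 and TBXAS1 are called higher and PTGES lower in CD43+ cells on all 4 days, and PTGS2 is called only on day 16, at 4.93. HPGDS has no day 6 point because it was listed at 0 in CD43- cells.

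Of the cyclooxygenases, PTGS1 was called higher in CD43+ cells from day 6 on and PTGS2 only on day 16. PTGS1 (ENSG00000095303, chr9:122370530-122395703, plus strand), the constitutive cyclooxygenase of platelets and many tissues, was 17, 14 and 12 on day 2 and 249, 245 and 313 on day 4. On day 6 its values were 3247, 2619 and 3048 in CD43+ cells and 106, 84 and 82 in CD43- cells. PTGS1 rose from day 2 to day 4 (4.14, standard error 0.48, adjusted p = 1.14e-07) and again from day 4 to day 6 CD43+ cells (3.46, adjusted p = 1.2e-06). The value was 3576, 3615 and 3576 in day 9 CD43+ cells against 32, 90 and 34 in CD43- cells. On day 12 it was 1960, 4082 and 2602 against 37, 236 and 225. On day 16 it was 6704, 8088 and 2680 against 638, 1173 and 822. The sorted groups of a day never overlapped, with log2 fold changes of 5.02, 6.25, 4.44 and 2.63 (standard error 0.48 each, adjusted p at most 2.74e-05). In CD43- cells PTGS1 rose from day 12 to day 16 (2.75, adjusted p = 4.68e-05), and without replicate 1 of day 12 CD43- cells that step was 1.88, below 4-fold. In the day 16 CD43- samples several blood cell markers stood in the same order over the replicates as PTGS1, with replicate 2 highest and replicate 1 lowest. SPN was 84, 328 and 122 in replicates 1, 2 and 3. The summed neutrophil genes were 7604, 22832 and 14400, beside 774 to 8930 in day 12 CD43- cells. The mast cell, basophil and eosinophil sum was 1473, 5313 and 2821, beside 614 to 1577 on day 12. The megakaryocyte and platelet sum was 15749, 42768 and 22444, a range that overlapped the 23879 to 39246 of day 12. Gene by gene, 9 of the 12 were called higher in CD43- cells from day 12 to day 16 and 0 lower. Their median log2 fold change was 3.65, and 4.46% of all tested genes were called higher and 5.97% lower. The monocyte and macrophage sum was 1822, 2464 and 2199 and PTPRC was 18, 42 and 22, in the same order. On day 12 they were 922, 7164 and 9699, and 4, 197 and 371. From day 12 to day 16, 7 of the 13 monocyte and macrophage genes were called lower in CD43- cells and 0 higher. LTC4S and TBXAS1 also followed the order of PTGS1. The other enzymes did not, among them ALOX5 (245, 310 and 240) and ALOX5AP (6, 8 and 10). The part of these cells in the PTGS1 step was not tested, and the gate also changed between days 12 and 16.

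PTGS2 (ENSG00000073756, chr1:186671791-186680427, minus strand), the inducible cyclooxygenase, was low before sorting, with 16, 33 and 20 on day 4. On day 6 it was 262, 190 and 231 in CD43+ cells and 758, 724 and 324 in CD43- cells. Both day 6 populations rose above day 4, CD43+ cells by 3.30 (adjusted p = 1.02e-06) and CD43- cells by 4.62 (adjusted p = 1.22e-08), and these comparisons share the day 4 samples. The day 6 groups did not overlap, with CD43- cells the higher, and their difference was -1.31, past the adjusted p but below 4-fold (standard error 0.45, adjusted p = 0.0179). On day 9, PTGS2 was 467, 800 and 378 in CD43+ cells and 1388, 472 and 684 in CD43- cells (-0.55, adjusted p = 0.289). On day 12 it was 1084, 545 and 874 against 646, 506 and 959 (0.24, adjusted p = 0.654). The groups overlapped on days 9 and 12. On day 16, PTGS2 was 2937, 2565 and 3988 in CD43+ cells and 68, 98 and 154 in CD43- cells, and the difference was 4.93 (standard error 0.45, adjusted p = 2.97e-10). Between days 12 and 16 the CD43- cells fell by 2.74 on the log2 scale (adjusted p = 2.33e-05), while the step in CD43+ cells was 1.95, just below 4-fold (adjusted p = 0.00114). This shift in the CD43 difference between days 12 and 16 was itself called (4.69, standard error 0.64, adjusted p = 1.46e-05). The gate used CD43 alone on day 12 and CD43 with CD45 on day 16, so time and gate cannot be told apart here.

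**Figure D3:**
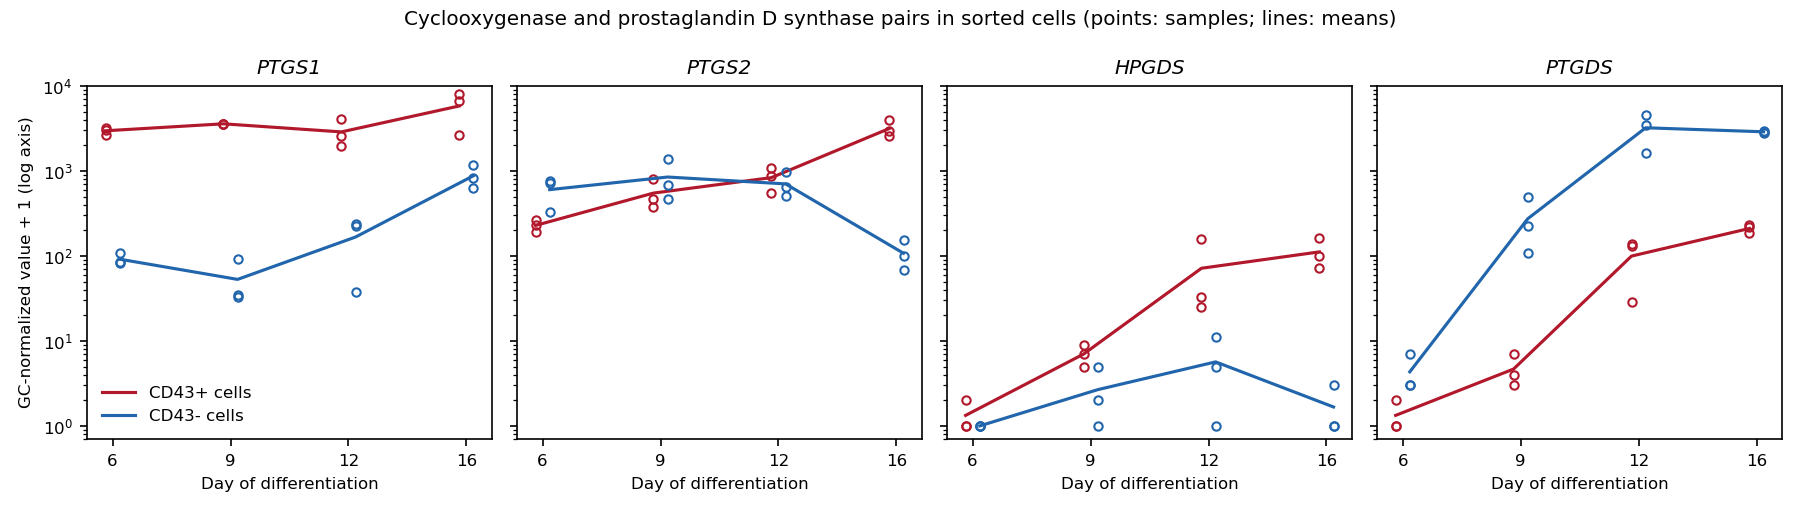
Values of PTGS1, PTGS2, HPGDS and PTGDS (y axis, GC-normalized value + 1, log axis) in CD43+ (red) and CD43- (blue) cells on days 6, 9, 12 and 16 (x axis), with points for samples and lines for means. PTGS2 is higher in CD43- cells on day 6 (324 to 758 against 190 to 262), overlaps between the populations on days 9 and 12 and is higher in CD43+ cells on day 16, whereas HPGDS is higher in CD43+ and PTGDS in CD43- cells on days 12 and 16.

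PTGES (ENSG00000148344, chr9:129738331-129753047, minus strand), the inducible synthase of prostaglandin E2, was higher in CD43- cells. On day 6 it was 8, 6 and 10 in CD43+ cells and 26, 32 and 52 in CD43- cells. On day 9 it was 3, 1 and 1 against 124, 151 and 203. On day 12 it was 10, 11 and 6 against 592, 546 and 595. All CD43- samples of these days were above all CD43+ samples, and the CD43- values were higher on each later day. On day 16, PTGES was 16, 13 and 4 in CD43+ cells and 874, 707 and 899 in CD43- cells. The day 6 log2 fold change was -2.03 (adjusted p = 3.6e-05), and those of days 9, 12 and 16 were -5.96, -5.89 and -6.28 (standard error 0.36 each, adjusted p at most 1.13e-13). The day 6 value lay close to 4-fold, and was -1.75 without replicate 3 of the CD43- cells, -1.86 without replicate 2 of the CD43+ cells and -1.34 at a pseudocount of 10. In CD43- cells PTGES rose from day 6 to day 9 (2.12, adjusted p = 0.000415), a step that was not called without replicate 1 of day 6 (1.91), without replicate 3 of day 9 (1.93), or with only these populations fitted (adjusted p = 0.111). At a pseudocount of 10 the differences of days 9, 12 and 16 were -3.84, -4.96 and -5.36, each called. The CD43 difference became more negative from day 6 to day 9 (-3.93, standard error 0.51, adjusted p = 4.1e-06). Day 0 embryoid bodies had 82, 81 and 81, and the undifferentiated sample 92.

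The prostaglandin D synthases took different sides. PTGDS (ENSG00000107317, chr9:136977505-136985435, plus strand), the lipocalin-type enzyme, was 0, 0 and 1 in day 6 CD43+ cells and 2, 2 and 6 in CD43- cells (-1.66, standard error 0.61, adjusted p = 0.0247, below 4-fold). At a pseudocount of 0.1 this difference was -3.75 (adjusted p = 0.000385) and was called, and at a pseudocount of 10 it was -0.36 (adjusted p = 0.527). On day 9 it was 3, 6 and 2 against 224, 487 and 108. On day 12 it was 28, 131 and 137 against 1646, 4540 and 3482. PTGDS was thus higher in every CD43- sample, and replicate 1 was the lowest of both day 12 populations. On day 16 it was 228, 184 and 217 in CD43+ cells and 2894, 2804 and 2974 in CD43- cells. For days 9, 12 and 16 the log2 fold changes were -5.71, -5.20 and -3.78 (adjusted p at most 4.17e-06). PTGDS rose in CD43- cells from day 6 to day 9 (5.85, adjusted p = 9.22e-07) and over the next step (3.70, adjusted p = 3.75e-05), and its day 12 level in CD43+ cells was above that of day 9 (4.21, adjusted p = 1.64e-06). Without replicate 1 of day 12 CD43+ cells this last step was 4.95. The rise from day 6 to day 9 in CD43- cells had an adjusted p = 0.0797 with only these populations fitted. Between days 6 and 9 the CD43 difference shifted by -4.05 (standard error 0.86, adjusted p = 0.00136), and at a pseudocount of 0.1 it was -2.31 (adjusted p = 0.179). In GENCODE v29, exons of AL807752.7 overlap PTGDS on the same strand, so its reads may be shared, and the span of PTGDS there differs from that in the table.

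HPGDS (ENSG00000163106, chr4:94298535-94342876, minus strand), the haematopoietic prostaglandin D synthase of mast cells and megakaryocytes, was listed at 0 in 18 of 34 samples. It was 1, 0 and 0 in day 6 CD43+ cells and 0 in all day 6 CD43- samples. On day 9 it was 8, 4 and 6 in CD43+ cells and 1, 0 and 4 in CD43- cells, a difference of 1.66, below 4-fold (standard error 0.71, adjusted p = 0.0423). Without replicate 3 of day 9 CD43- cells it was 2.27 and was called. On day 12 HPGDS was 156, 32 and 24 against 0, 4 and 10, and on day 16 it was 98, 72 and 162 against 0, 0 and 2. No CD43- sample reached a CD43+ sample on either day. Its log2 fold changes were 3.73 (day 12, adjusted p = 4.24e-05) and 6.19 (day 16, adjusted p = 1.7e-08). The day 12 CD43+ mean of 70.7 ± 74.0 (SD, n = 3) rested largely on replicate 1, without which the difference was 2.92, and the difference was 4.50 without replicate 3 of the CD43- cells. At a pseudocount of 10 the differences of days 12 and 16 were 2.13 and 3.44, both called. In CD43+ cells HPGDS rose from day 6 to day 9 (2.43, adjusted p = 0.00992) and from day 9 to day 12 (2.89, adjusted p = 0.00112), neither of which was called at a pseudocount of 10 (0.62 and 1.96), and the later step was not called at a pseudocount of 0.1 either (adjusted p = 0.0838). Without replicate 1 of day 12 CD43+ cells the later step was 2.08 (adjusted p = 0.0194), close to 4-fold.

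TBXAS1 (ENSG00000059377, chr7:139777051-140020325, plus strand), the thromboxane synthase, was 19, 19 and 16 on day 4. On day 6 it was 192, 132 and 131 in CD43+ cells and 36, 28 and 11 in CD43- cells. On day 9 it was 682, 762 and 718 against 64, 52 and 64. The CD43+ samples were above all CD43- samples. On day 12, TBXAS1 was 1864, 1466 and 1288 against 11, 24 and 134, and on day 16 it was 1730, 1922 and 1674 against 73, 136 and 110. The groups stayed apart, and replicate 3 was the highest of the day 12 CD43- samples. TBXAS1 had log2 fold changes of 2.68, 3.57, 5.47 and 4.09 in the order of days (standard error 0.49 each, adjusted p at most 5.31e-05). TBXAS1 rose from day 4 to day 6 CD43+ cells (2.99, adjusted p = 1.25e-05), and CD43+ cells rose further by day 9 (2.26, adjusted p = 0.000763).

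Of 12 megakaryocyte and platelet genes, 9, 11, 10 and 10 were called higher in CD43+ cells on days 6, 9, 12 and 16 and 1 lower each day, beside the shares of all genes given above (4.69% to 12.2% higher and 7.85% to 14.4% lower). Their summed value in CD43+ cells was 12909 to 18968 on day 6 and 133827 to 139665 on day 9. In replicates 1, 2 and 3 of day 12 it was 38792, 94849 and 55041. On day 12 the sum overlapped that of CD43- cells, which was 23879 to 39246. The median log2 fold change of the 12 genes was 5.62 that day, so the overlapping sums do not reflect most genes of the list. On days 6, 9 and 12 the CD43+ mean was 152, 721 and 1539 for TBXAS1 and 2971, 3589 and 2881 for PTGS1. On day 12 TBXAS1 was highest, at 1864, in replicate 1, where the sum was lowest, and PTGS1, with 1960, 4082 and 2602, stood in the order of the sum. In day 16 CD43+ cells the sum was 117945, 197131 and 51586 in replicates 1, 2 and 3. PTGS1, with 6704, 8088 and 2680, and TBXAS1, with 1730, 1922 and 1674, both stood in that order. The part of megakaryocytes in the TBXAS1 and PTGS1 results was not tested. All 12 genes were detected in each sorted population, CD43- cells included.

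Of 12 mesenchymal genes, 9, 12, 12 and 12 were lower in CD43+ cells, and of 12 endothelial genes 2, 7, 8 and 9, with none higher in either list, beside 7.85%, 12.8%, 14.4% and 13.6% of all genes called lower. The mesenchymal sum in CD43- cells was 203597 to 252155 on day 6 and 251326 to 307700 on day 9. It was 314477 to 320973 on day 12 and 324550 to 330081 on day 16. In CD43+ cells it was 59785 to 156504 on day 6 and 7777 to 16279 on day 16. The endothelial sum in CD43- cells was 38086 to 124194 on day 6 and 50105 to 85958 on day 9. It was 35885 to 51956 on day 12 and 59928 to 73149 on day 16. No mesenchymal or endothelial gene was at 0 in all samples of a sorted population. The part of these cell types in the results was not tested.

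On day 12, replicates 2 and 3 of the CD43- cells, which carried PTPRC, also had more of several enzymes than replicate 1. PTGS1 was 236 and 225 in them and 37 in replicate 1, and ALOX5AP was 20 and 25 against 2. With both left out, 9 enzymes were still called on day 12. The log2 differences were then 6.18 for PTGS1, 7.43 for ALOX5AP, 5.98 for ALOX5, 6.99 for TBXAS1, 5.66 for HPGDS and 3.05 for LTA4H, each larger than with all samples. It was 5.96 for LTC4S, -5.93 for PTGES and -4.35 for PTGDS. In this fit the remaining CD43- sample was assumed to vary like the other populations. That sample, replicate 1, had more POU5F1 (397) than replicates 2 and 3 (44 and 48). With replicate 1 left out instead, the difference was 3.57 for PTGS1, 4.47 for ALOX5AP, 4.12 for ALOX5, 4.71 for TBXAS1 and 2.77 for HPGDS. LTC4S was 5.24 without replicate 2 and 7.36 without replicate 3, TBXAS1 was 6.46 without replicate 3, and PTGDS was -4.46 without replicate 1 of the CD43+ cells.

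Successive days were compared to follow each enzyme over time, and these comparisons share samples with each other and with the sorted comparisons above. In the steps below, an enzyme said to have risen or fallen is one that was called. Cells were unsorted on day 4 and sorted on day 6, and the gate on day 16 used CD45 as well as CD43. Time and gate therefore cannot be told apart from day 4 to day 6 or from day 12 to day 16. In unsorted cells, 1 enzyme (PTGDS, -2.32, adjusted p = 0.00358) fell from day 0 to day 2, when 7.88% of genes were called (4.4% higher and 3.48% lower), and without replicate 2 of day 2 it was -1.98. From day 2 to day 4, 1 enzyme, PTGS1, rose, when 9.5% were called (4.97% higher and 4.53% lower). From day 4 to day 6 CD43+ cells, 4 enzymes rose (LTC4S, PTGS1, PTGS2 and TBXAS1) and 2 were lower (PTGES with -2.03 and PTGDS with an adjusted p = 0.00164), when 14.5% were called (6.8% higher and 7.73% lower). Of these, the rise of LTC4S (1.24) and the falls of PTGES and PTGDS (-1.34 and -0.66) were not called at a pseudocount of 10. The LTC4S step was 2.58 without replicate 1 of day 6 CD43+ cells, 3.82 without replicate 3, and 4.0 without replicate 2 of day 4, and PTGES was also not called without replicate 1 of day 4 (-1.98) or replicate 2 of day 6 CD43+ cells (-1.87). From day 4 to day 6 CD43- cells only PTGS2 was called, and rose, beside 7.71% of genes (4.94% higher and 2.77% lower).

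In CD43+ cells, 4 enzymes rose from day 6 to day 9 (ALOX5AP, LTC4S, HPGDS and TBXAS1), when 7.53% of genes were called (3.56% higher and 3.97% lower), and 5 from day 9 to day 12 (ALOX5, ALOX5AP, LTA4H, PTGDS and HPGDS), when 15% were (8.45% higher and 6.54% lower). None was called lower in either step. From day 6 to day 9, PTGES (-1.81, adjusted p = 0.000306), PTGDS (1.80, adjusted p = 0.0254) and PTGS2 (1.20, adjusted p = 0.0462) passed the adjusted p of limma and missed only the 4-fold limit. So did PTGES from day 9 to day 12 (1.95, adjusted p = 4.83e-05). From day 12 to day 16 limma called 0 enzymes in CD43+ cells, beside 9.05% of genes (3.79% higher and 5.26% lower), and 3 had an unadjusted p below 0.05 (LTA4H, PTGS2 and PTGDS). LTA4H (1.21, adjusted p = 0.00208) and PTGS2 (1.95, adjusted p = 0.00114) also passed the adjusted p and missed only the 4-fold limit. In CD43- cells, 2 enzymes rose from day 6 to day 9 (PTGES and PTGDS), when 1.75% of genes were called (1.1% higher and 0.657% lower), and 1 from day 9 to day 12 (PTGDS), when 7.33% were (4.52% higher and 2.8% lower). In that later step PTGES (1.88, adjusted p = 0.000211) and PTGS1 (1.43, adjusted p = 0.0218) missed only the 4-fold limit. From day 12 to day 16 PTGS1 rose and PTGS2 fell in CD43- cells, beside 10.4% of genes (4.46% higher and 5.97% lower). ALOX5 (1.95, adjusted p = 0.00184), TBXAS1 (1.60) and LTA4H (0.88, adjusted p = 0.0182) also passed the adjusted p there and missed only the 4-fold limit. The CD43 difference changed from day 6 to day 9 for 3 enzymes, beside 7.39% of genes (3.21% higher and 4.18% lower), higher for ALOX5AP (2.74, standard error 0.83, adjusted p = 0.0208) and lower for PTGES and PTGDS. The ALOX5AP change was 2.47 without replicate 3 of day 6 CD43+ cells (adjusted p = 0.063) and had an adjusted p = 0.122 at a pseudocount of 0.1. From day 9 to day 12 limma called 0 changes of the difference, beside 9% of genes (4.61% higher and 4.39% lower), and 6 had an unadjusted p below 0.05. Of these, 4 also passed the adjusted p and missed only the 4-fold limit, with changes of 1.96 for LTA4H (adjusted p = 0.000959), 1.91 for ALOX5 (adjusted p = 0.0378), 1.90 for TBXAS1 (adjusted p = 0.0412) and -1.81 for PTGS1 (adjusted p = 0.0486). From day 12 to day 16 the 1 change was that of PTGS2, beside 5.03% (2.86% higher and 2.17% lower).

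Ordered by mean over the 11 replicated populations, day 16 CD43+ cells were highest for ALOX5, LTC4S, LTA4H, PTGS1, PTGS2, HPGDS and TBXAS1, and day 12 CD43+ cells for ALOX5AP. PTGES was highest in day 16 CD43- cells (827 ± 104, SD, n = 3) and PTGDS in day 12 CD43- cells (3223 ± 1464). For ALOX5, ALOX5AP, LTC4S, LTA4H, HPGDS and TBXAS1 the ranges of day 12 and day 16 CD43+ cells overlapped, and for PTGDS those of day 12 and day 16 CD43- cells. The day 16 CD43+ range of PTGS1 (2680 to 8088) overlapped that of day 9 (3576 to 3615). Only for PTGS2 and PTGES was the range of the highest population clear of the next. The lowest population mean was in day 6 CD43- cells for ALOX5 (27.0) and LTC4S (0.67), in day 9 CD43- cells for LTA4H (1166), on day 2 for PTGS1 (14.3) and on day 0 for PTGS2 (13.7) and TBXAS1 (11.3). It was in day 9 CD43+ cells for PTGES (1.67) and in day 6 CD43+ cells for PTGDS (0.33).

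The rest of the pathway was described with 5 lists, of which 55 of 61 genes were found in the table and all 55 were tested. In CD43+ cells 4, 10, 13 and 12 of them were called higher and 12, 12, 9 and 7 lower on days 6, 9, 12 and 16, beside 4.69%, 8.65%, 11.8% and 12.2% of all tested genes called higher and 7.85%, 12.8%, 14.4% and 13.6% lower. Their median log2 fold change was -0.02, 0.45, 0.64 and 0.46, beside 0.14, 0.24, 0.22 and 0.14 over all tested genes. The counts of each list below are to be read against these shares. The genes named are the largest called rise and fall of each list on each day, and a few others are said to have been chosen after their values were seen.

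**Figure D4:**
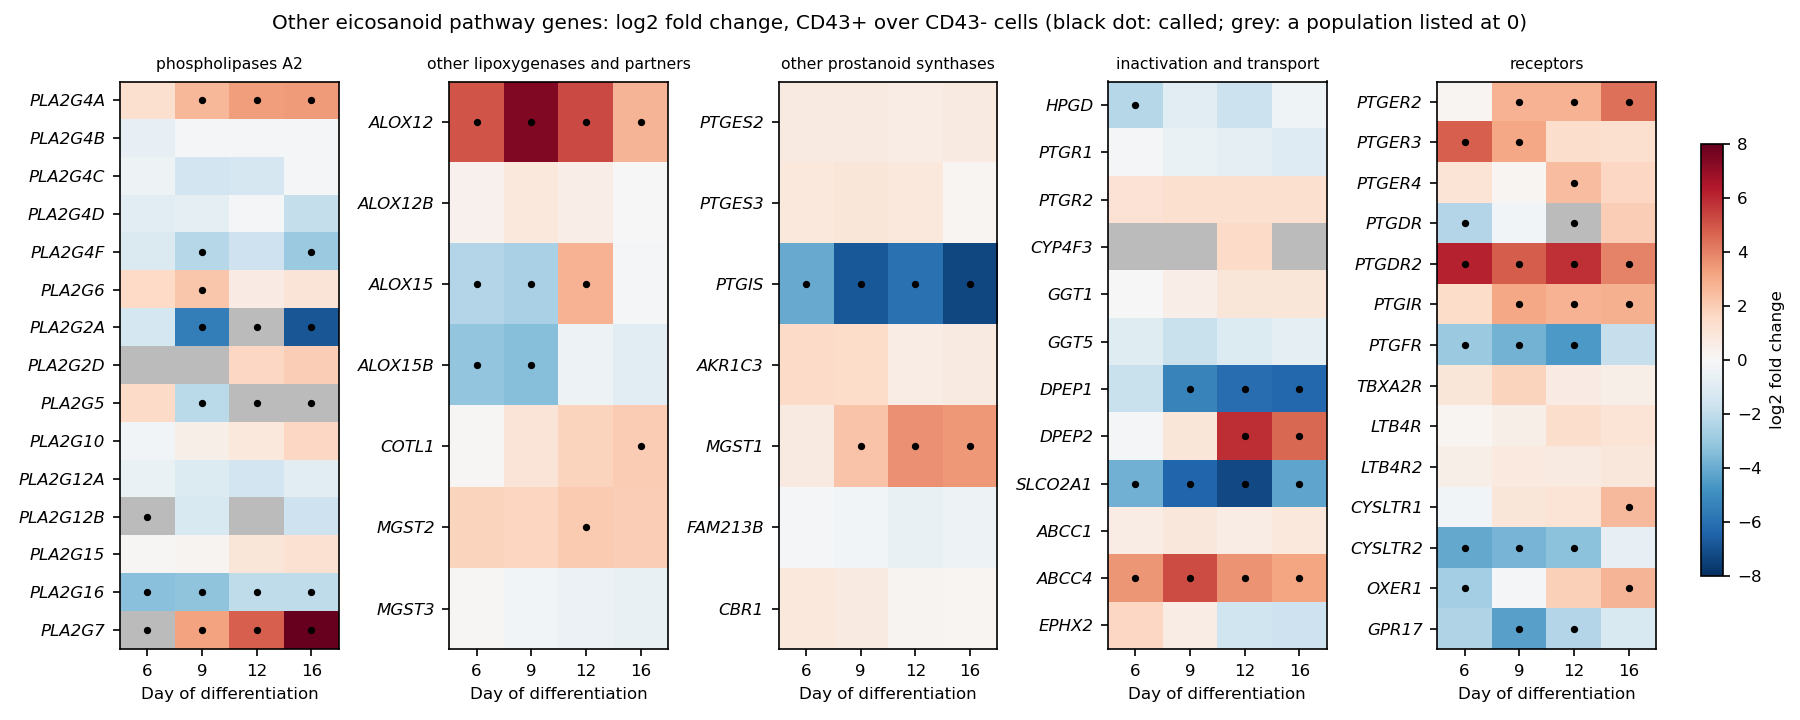
log2 fold change of CD43+ over CD43- cells (colour, red higher in CD43+ cells) on days 6, 9, 12 and 16 (x axis) for 55 other pathway genes in 5 lists (y axis), with a black dot for called genes and grey where a population was listed at 0. Values past the end of the colour scale take its last colour. PTGIS and SLCO2A1 are lower and ALOX12, ABCC4 and PTGDR2 higher in CD43+ cells on all 4 days.

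Upstream of the enzymes, 0, 3, 2 and 2 of 15 phospholipases A2 were called higher and 3, 4, 3 and 4 lower on days 6, 9, 12 and 16, with medians of -0.65, -0.72, -0.11 and -0.18. PLA2G7, a secreted enzyme that inactivates platelet-activating factor, was 2508, 1963 and 2631 in day 16 CD43+ cells and 2, 6 and 6 in CD43- cells (8.80, standard error 0.82, adjusted p = 3.85e-10). It was also the largest rise of the list on day 9 (3.21) and day 12 (4.81), and on day 6 it was listed at 0 in all CD43+ samples and at 4, 10 and 12 in CD43- cells. PLA2G2A, a secreted phospholipase, was 285, 268 and 302 in day 16 CD43- cells against 2, 4 and 0 in CD43+ cells (-6.86, adjusted p = 3.99e-11). It was the largest fall on day 9 (-5.55) and was listed at 0 in all day 12 CD43+ samples. PLA2G12B had the largest fall on day 6 and was listed at 0 in all CD43+ samples of that day. PLA2G4A, the cytosolic enzyme that releases arachidonic acid, was chosen after its values were seen, and was 446, 387 and 410 in day 16 CD43+ cells against 30, 34 and 54 in CD43- cells (3.41, adjusted p = 6.89e-10). It was called on days 9, 12 and 16, and its day 6 difference was 1.30.

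Of 7 other lipoxygenases and partners, 1, 1, 3 and 2 were called higher and 2, 2, 0 and 0 lower. ALOX12, the platelet-type 12-lipoxygenase, was 864, 682 and 578 in day 6 CD43+ cells against 14, 26 and 22 in CD43- cells. On day 9 it was 1304, 1392 and 1484 against 6, 3 and 18. It had the largest rise of the list on every day, with log2 fold changes of 5.05, 7.42, 5.30 and 2.74 on days 6, 9, 12 and 16 (adjusted p at most 3.87e-05). ALOX15B, a 15-lipoxygenase, had the largest falls, -3.18 on day 6 and -3.43 on day 9. ALOX15, the related enzyme of eosinophils and macrophages, was chosen after its values were seen. Its log2 fold change was -2.35 for day 6 (adjusted p = 0.00188), -2.59 for day 9 (adjusted p = 0.000448) and 2.78 for day 12 (adjusted p = 0.000192). On day 16 its values were 356, 288 and 374 in CD43+ cells and 323, 396 and 376 in CD43- cells, and the groups overlapped.

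Of 7 other prostanoid synthases, 0, 1, 1 and 1 were called higher and 1 lower on each day, which is near the share of all genes called (12.5%, 21.5%, 26.2% and 25.8%). The gene that was lower was PTGIS, the prostacyclin synthase known from endothelial and smooth muscle cells. Its value was 526, 632 and 1380 in day 6 CD43- cells and 30, 28 and 118 in CD43+ cells. On day 16 it was 1250, 1396 and 1209 against 14, 8 and 3. PTGIS had log2 fold changes of -4.02, -6.80, -5.95 and -7.30 on days 6, 9, 12 and 16 (adjusted p at most 6.16e-07). The gene that was higher was MGST1, a microsomal glutathione transferase related to PTGES and LTC4S, at 2.28, 3.67 and 3.49 on days 9, 12 and 16. The enzymes PTGES2 and PTGES3, other synthases of prostaglandin E2, were not called on any day.

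Of 12 genes of inactivation and transport, 1, 1, 2 and 2 were called higher and 2 lower on each day. On days 9, 12 and 16 these counts were also near the share of all genes called (21.5%, 26.2% and 25.8%). ABCC4, an exporter of prostaglandins, was 4071, 3010 and 3510 in day 6 CD43+ cells against 356, 269 and 290 in CD43- cells. Its log2 fold change was the largest rise of the list on day 6 (3.53) and day 9 (5.19). SLCO2A1, the prostaglandin importer, was 234, 472 and 276 in day 6 CD43- cells against 20, 36 and 12 in CD43+ cells. It had the largest falls on day 6 (-3.86), day 9 (-6.32) and day 12 (-7.19), and DPEP1 on day 16 (-6.25, adjusted p = 1.63e-12). DPEP1 and DPEP2 are dipeptidases that convert leukotriene D4 to E4, and they differed in direction. DPEP2 was 599, 518 and 621 in day 16 CD43+ cells against 15, 32 and 24 in CD43- cells, and had the largest rises on day 12 (5.88) and day 16 (4.61).

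Of 14 receptors, 2, 4, 5 and 5 were called higher and 4, 3, 3 and 0 lower. PTGDR2, the prostaglandin D2 receptor of eosinophils, basophils and T helper cells, was 260, 334 and 319 in day 6 CD43+ cells against 2, 4 and 4 in CD43- cells. It had the largest rise on day 6 (6.17), day 9 (4.86) and day 12 (5.87), and was 3.96 on day 16. PTGER2, a prostaglandin E2 receptor, had the largest rise on day 16, with 532, 358 and 642 against 14, 22 and 36 (4.41, adjusted p = 3.32e-06). The largest falls were CYSLTR2, a cysteinyl leukotriene receptor, on day 6 (-4.07), GPR17 on day 9 (-4.37) and PTGFR, the prostaglandin F receptor, on day 12 (-4.57). CYSLTR2 was 72, 140 and 64 in day 6 CD43- cells and 4, 6 and 3 in CD43+ cells.

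Over the mean log2(value + 1) of the 11 replicated populations, ALOX5AP, LTC4S and TBXAS1 were alike, with Pearson's r of 0.93 between ALOX5AP and LTC4S, 0.96 between ALOX5AP and TBXAS1, and 0.97 between LTC4S and TBXAS1. ALOX5 and HPGDS were near them. With ALOX5AP, LTC4S and TBXAS1, r was 0.89, 0.93 and 0.93 for ALOX5 and 0.92, 0.87 and 0.87 for HPGDS. PTGES and PTGDS had an r of 0.73, and PTGES had a negative r with each of the other 8 enzymes, from -0.21 with PTGS2 to -0.59 with LTC4S. PTGS1 and PTGS2 had an r of 0.51, and PTGDS and HPGDS 0.31. These values describe 11 points that share the sort, the normalization and the time course, and carry no test. The genes most alike in the whole table were TSPAN32 and GFI1B for PTGS1 (r of 0.99 and 0.98), ASGR2, GPR35 and HP for ALOX5AP (each 0.99), and CTSW, MGAM and WDFY4 for LTC4S (each 0.99). They were GPR34, CTSS and LILRA5 for HPGDS (0.99, 0.98 and 0.98) and TAOK3, TAGAP and GPR65 for TBXAS1 (each 0.99). For ALOX5 they were NLRP6, KLHL30 and IKBKB (each 0.98), and for PTGS1 the third was THOC2 (0.97). They were RP11-6O2.2, YIPF1 and AKAP10 for LTA4H (0.97, 0.97 and 0.96), and APOL1, KLF6 and ADAMTSL4-AS1 for PTGS2 (0.97, 0.96 and 0.96). For PTGES they were EPHA6, ACVR2A and GOLGA8B (0.97, 0.96 and 0.96), and for PTGDS TNNT3, TBC1D2B and PLTP (0.97, 0.97 and 0.96).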

How the data were processed

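Per the study's methods, the authors quantified reads with RSEM and bowtie2 on Ensembl annotations, and removed GC effects with EDASeq. The processing notes also name STAR 2.7, bcl2fastq and hg38. The deposited values are a normalized score, tag counts corrected for GC content and then rounded, neither raw counts nor CPM, in 34 samples. They hold no depth, so errors come from replicate spread alone.

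The members and gene lists were chosen with earlier results of these data known. From the deposited values, log2(value + 1) was tested with limma 3.58.1 (R 4.3.3, trend) in 1 fit of 33 samples and 11 populations, with 17 comparisons. Of 20255 genes, 19788 reaching a value of 10 in 3 or more samples were tested, 467 were not, and p-values were Benjamini-Hochberg adjusted over all of them. Calls needed an adjusted p below 0.05 and more than 4-fold. All 10 members, the largest called rise and fall of each pathway list on each day and the 3 genes most alike were named. The procedure was tested on simulated data for the day 12 comparison of CD43+ and CD43- cells. Only genes with values well above 0 were changed in it, so calls on low values were not covered. Alternatives were pseudocounts of 0.1 and 10, no filter or a value of at least 100, a replicate block, median-of-ratios scaling, fits of only the compared populations, robust variances, a 2-fold threshold, and each library left out. A block within day 6, and day 12 without 2 libraries, were chosen after seeing the data. Deviations from the population means of samples with the same number correlated at 0.109 to 0.199 on day 6, over 0.1 in every pair, and at -0.015 to 0.108 on days 9, 12 and 16, so pairing by number was accepted for day 6 alone.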

Additional observations from a re-analysis of the deposited data

Results flagged for a closer look

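For 4 enzymes the difference between CD43+ and CD43- cells changed between successive days in the test of that change itself (limma, adjusted over all tested genes). For ALOX5AP it grew by 2.74 (log2, standard error 0.83, adjusted p = 0.0208) from day 6 to day 9. For PTGES it changed by -3.93 (standard error 0.51, adjusted p = 4.1e-06) and for PTGDS by -4.05 (standard error 0.86, adjusted p = 0.00136) over the same days. For PTGS2 it changed by 4.69 (standard error 0.64, adjusted p = 1.46e-05) from day 12 to day 16, with every CD43+ sample above every CD43- sample on day 16. The gate also changed between days 12 and 16, so time and gate cannot be told apart.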

How the results depend on the processing

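Of 1043 values of single enzymes under the alternatives, 1015 kept their direction and their side of the threshold and 1043 were not reversed. A value of 0 counted as kept, as for HPGDS on day 6 with 1 library left out. The replicate blocks, robust variances, filters, 2-fold threshold and fits of only the compared populations leave each log2 fold change as it is. Only the pseudocounts, the scaling and left-out libraries could therefore change a direction. The counts of enzymes called between CD43+ and CD43- cells on days 9, 12 and 16 stayed within 1.5 times of 7, 9 and 10 under every alternative. The day 6 count of 5 was 3 at a pseudocount of 10. In the steps, a pseudocount of 10 gave 1 for CD43- cells from day 6 to day 9, 3 for day 6 CD43+ against day 4, 0 for day 2 against day 0 and 1 for the shift of the CD43 difference between days 9 and 12. A pseudocount of 0.1 gave 2 for day 4 against day 2, 2 for day 6 CD43- against day 4 and 1 for the change of the difference from day 6 to day 9. A fold change above 2 gave 3 for CD43- cells from day 9 to day 12, 4 from day 12 to day 16, 2 for CD43+ cells from day 12 to day 16, 7 from day 6 to day 9, 4 for the change of the difference from day 9 to day 12, 5 for day 2 against day 0 and 4 for day 6 CD43- against day 4. Median-of-ratios scaling gave 3 for the change of the difference from day 9 to day 12, and only the populations compared gave 0 for CD43- cells from day 6 to day 9. This scaling moved the median of all genes by -0.17 on day 6, -0.21 on day 9, 0.11 in day 6 CD43- against day 4, 0.17 in CD43+ cells from day 9 to day 12 and 0.12 in the change of the difference from day 9 to day 12. Other than by fewer samples or another threshold, the cause was not tested.

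With 1 library left out, the count ranged from 1 to 2 for CD43- cells from day 9 to day 12 (2 without replicate 1 of day 12 or replicate 3 of day 9), 2 to 4 from day 12 to day 16 (4 without replicate 3 of day 12 CD43- cells), and 1 to 2 from day 6 to day 9. It ranged from 0 to 1 for CD43+ cells from day 12 to day 16 (1 without replicate 1 or 3 of day 12, or replicate 2 of day 16) and for day 2 against day 0, from 0 to 4 for the change of the difference from day 9 to day 12 (4 without replicate 3 of day 12 CD43- cells) and from 1 to 3 from day 12 to day 16 (3 without replicate 3 of day 12 CD43- or replicate 1 of day 12 CD43+ cells).

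With the replicate block, all 84 values kept their direction and side, and 5, 7, 9 and 10 enzymes were called on days 6, 9, 12 and 16. With the replicate block within day 6 only, 5 enzymes were called. HPGDS was not tested when a value of at least 100 in 3 samples was needed. With no counts, the values give no depth, and differences near 0 or near the maximum are limited by the rank-like scale.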
